A study of Vitis vinifera with 12 samples.

Results

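The change in gene expression between 40 and 50 days after full bloom was described in fruit of the grapevine (Vitis vinifera) cultivar Victoria, a table grape with white berries. The 6 libraries of these ages, 3 at 40 days and 3 at 50 days (called a, b and c at each), were compared among the 12 of the series, which also holds 3 libraries each at 60 and 80 days. Every library comes from fruit of the same cultivar, by the labels the groups differ in age alone, and these name no treatment and no part of the berry. The libraries were directional and made from polyadenylated RNA. The protocol in the labels describes pooling of separately extracted replicates, so a, b and c may be technical repeats, and p-values measure the spread between these libraries only. Genes with at least 1 FPKM (fragments per kilobase of transcript per 1000000 fragments, a level that takes account of transcript length) in at least 3 of the 12 libraries were tested. They numbered 14743 of the 22580 gene IDs in the table.

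A grape berry grows in a first phase in which it stays hard, green and acidic. At the onset of ripening, called veraison, it softens, accumulates glucose and fructose, loses malic acid and, in coloured cultivars, makes anthocyanins. Abscisic acid is the hormone best known for promoting this switch in grape, and auxin is known for delaying it. The labels give no sugar, acid, firmness or colour values for these berries, and the table holds IDs alone. The RefSeq gene table used here contained 0 of them. Genes are therefore given by ID with no role, and neither the onset of ripening nor the tissue make-up of the fruit could be checked by marker genes. In a whole fruit, fewer cells of a type and less RNA per cell cannot be told apart.

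More genes fell than rose between 40 and 50 days. Of the 14743 genes, 1750 (11.9%) were called, meaning a Benjamini-Hochberg adjusted p under 0.05 in limma's moderated test and a difference of at least 1 on the log2(FPKM + 1) scale. Of these, 1243 (8.43% of those tested) were lower and 507 (3.44%) higher at 50 days. The median difference over all tested genes was -0.07, with quartiles of -0.43 and 0.26, and 55.4% of tested genes had a negative difference. Among called genes the median fall was 1.41 and the median rise 1.36 on this scale. Changes of at least 3 on the log2 scale numbered 46 falls and 17 rises, and those of at least 4 numbered 13 falls and 3 rises. The 3 libraries of one age did not overlap those of the other in 1235 of the 1243 falls and 494 of the 507 rises. Over all tested genes, no overlap was found for 32.5% downward and 22.8% upward. The calls were made on these same libraries, so the selection itself favours separation, and the counts are no separate support. The threshold passes through a dense range of sizes: 212 falls and 114 rises with an adjusted p under 0.05 in limma lay between 0.9 and 1, just outside it, and 176 falls and 87 rises lay between 1 and 1.1, just inside. Of the 146 tested genes that passed the filter through the 40-day libraries alone, 102 were among the falls. Of the 4 that passed through the 50-day libraries alone, 2 were among the rises. A gene that passed in either way had to differ between the ages, and the filter admitted more of them on the 40-day side. With a pseudocount of 5 in place of 1 there were 661 falls and 238 rises, and with no minimum fold 3915 and 2514. The median difference over all tested genes depended on scaling, and the columns were not rescaled here. After scaling by median of ratios it was -0.01, with 1140 falls and 559 rises. After scaling to a sum of 1000000 it was -0.10, with 1277 falls and 469 rises.

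**Figure D1:**
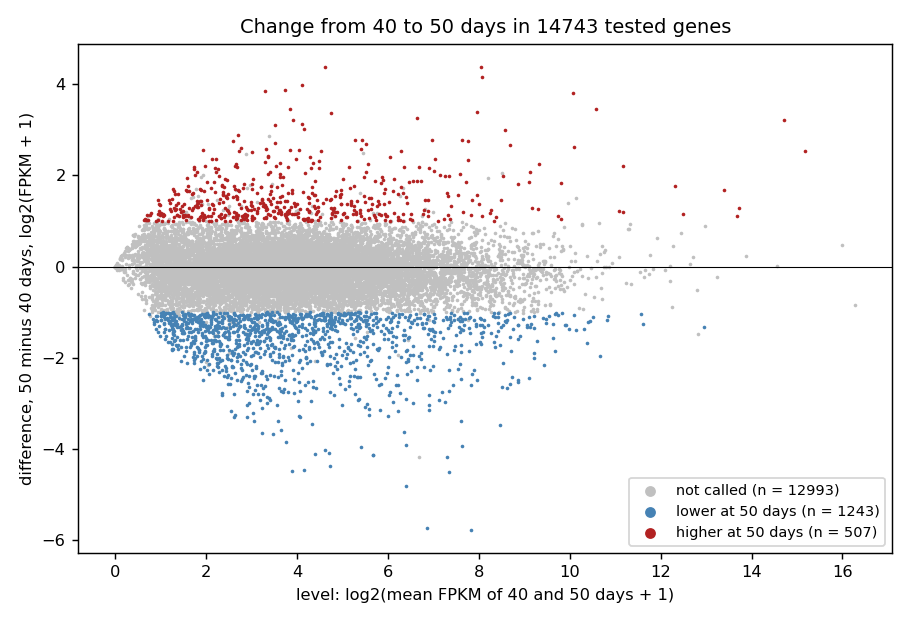
Each point is 1 tested gene. The horizontal axis is its level, log2 of the mean FPKM of 40 and 50 days plus 1, and the vertical axis is the difference at 50 minus 40 days on the log2(FPKM + 1) scale. The 1243 genes called lower (blue) reach down to -5.77, and the 507 called higher (red) reach up to 4.37. Grey points are genes that were not called.

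Among called genes, the rises moved more of the summed FPKM than the falls, although they were fewer. This order rested on the 10 genes of highest mean and turned without them. Of the summed FPKM, 5.28% ± 0.98 (SD, n = 3) lay in the 507 rising genes at 40 days and 20.1% ± 2.7 at 50 days. Their share lay between 4.63% and 6.41% in the 40-day libraries and between 18.0% and 23.1% in the 50-day libraries. The 1243 genes that fell held 12.9% ± 0.50 at 40 days and 4.58% ± 0.37 at 50 days, with 12.6% to 13.5% in the younger and 4.30% to 5.0% in the older libraries. Because both sets were picked from these libraries, the shares are a description and no test. The gain of the called genes was concentrated: 2 genes made up 55.2% of the 14.8 percentage points gained, and 10 genes made up 83.3%. Their loss was spread out, and 52 genes were needed to reach the middle of the 8.36 percentage points lost, of which the 10 largest losses made up 22.3%. The 10 genes of highest mean over all libraries were then taken out of the sets and of the total. The genes that rose went from 2.15% ± 0.20 to 7.39% ± 0.58 and those that fell from 16.4% ± 0.79 to 6.53% ± 0.33, so that the falls moved more. Genes that missed the minimum difference are in neither set, and 1 of them, VIT_19s0014g02740, went from a mean of 102850 to 56942 FPKM. Gains were left out as well: VIT_01s0010g02030, named after its values were seen, went from a mean of 54286 to 75870 FPKM and was not called (0.48 ± 0.27 SE in log2 units, limma adjusted p = 0.171).

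Levels at 60 and 80 days did not enter the difference between 40 and 50 days, although these libraries entered the filter and each gene's spread in the fit. The median level of the genes that rose was 2.60 to 2.73 on the log2(FPKM + 1) scale in the 40-day libraries and 4.10 to 4.34 in the 50-day libraries. It was 4.13 to 4.26 at 60 days and 4.02 to 4.39 at 80 days, so that the set stayed near its 50-day level. The median level of the genes that fell was 4.17 to 4.39 at 40 days, 2.57 to 2.67 at 50 days, 2.54 to 2.60 at 60 days and 1.82 to 2.16 at 80 days. These medians were level between 50 and 60 days and lower in every 80-day library. The number of the 1243 genes below 1 FPKM was 1 to 7 in a 40-day library, 218 to 260 at 50 days, 255 to 268 at 60 days and 368 to 435 at 80 days. Over all 14743 tested genes this number was 857 to 1004 at 40 days and 1004 to 1025 at 50 days. It was 980 to 1021 at 60 days and 1268 to 1337 at 80 days. The median level of all tested genes was also lower at 80 days, at 3.67 to 3.68, beside 3.75 to 3.77 at 60 days. Of the summed FPKM, 24.5% ± 0.85 lay in the genes that rose at 60 days and 31.9% ± 2.1 at 80 days. Without the 10 genes of highest mean these shares were 7.98% ± 0.16 and 11.1% ± 0.20, so that a few genes held most of the later share.

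**Figure D2:**
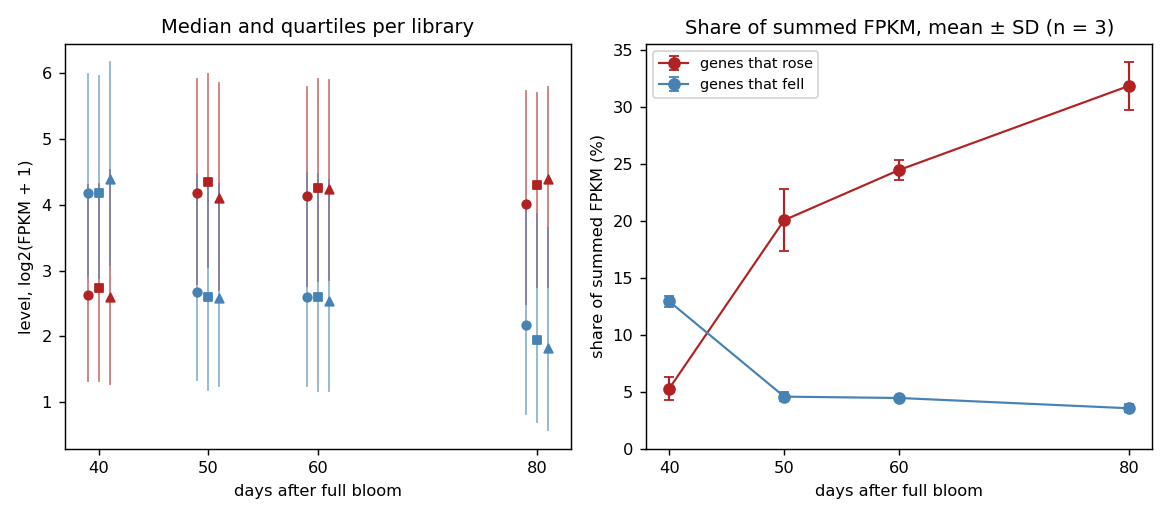
The left panel plots the median (symbols) and quartiles (lines) of log2(FPKM + 1) over the 507 genes that rose (red) and the 1243 that fell (blue) from 40 to 50 days, in each of the 12 libraries against days after full bloom (circle a, square b, triangle c). The right panel plots the share of summed FPKM held by each set as mean ± SD over 3 libraries. The set that rose stays high after 50 days, and its share of summed FPKM goes on to 31.9% at 80 days (11.1% without the 10 genes of highest mean, not drawn).

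Levels at 50 days differed widely within the falling set. The mean at 50 days was at least 10 FPKM in 467, between 1 and 10 FPKM in 545 and under 1 FPKM in 231. Of the genes that rose, 192 already had a mean of at least 10 FPKM at 40 days, 218 were between 1 and 10 and 97 were under 1 FPKM. Across levels, set by the mean of log2(FPKM + 1) over all 12 libraries and given here as FPKM, falls were 13.4% of the 4193 tested genes under 5 FPKM, 6.95% of 4877 genes from 5 to 20, 5.34% of 4216 genes from 20 to 100 and 7.97% of 1368 genes from 100 to 1000. Rises were 3.32%, 3.55%, 2.94% and 4.09% of the same groups. Of the 89 genes at 1000 FPKM and over, 15 rose and 9 fell. When levels were taken from the 60- and 80-day libraries alone, that top group held 85 genes, of which 19 rose and 4 fell. By these later levels, falls were 15.5% of 4424 genes under 5 FPKM. Both kinds of level use libraries from after the change. They place genes with lasting rises in higher groups and genes with lasting falls in lower groups. The shares by level are therefore a description, and the part of this placing in them was not tested.

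The largest rise on the log2(FPKM + 1) scale was that of VIT_00s0225g00230, an ID with no placed chromosome. Its values were 12.8, 14 and 59.8 FPKM in libraries a, b and c at 40 days and 339, 600 and 545 FPKM at 50 days. Library c was the highest of the 40-day libraries, and the ages did not overlap. The mean at 50 days was 17.2 times that at 40 days (4.37 ± 0.45 SE in log2 units, limma adjusted p = 3.74e-05). Library c weighs on that ratio: without it the mean at 50 days was 37 times that at 40 days (5.07 in log2 units). At 60 and 80 days it stood at 1135 ± 44 and 1042 ± 134 FPKM (SD, n = 3).

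A rise of the same size on that scale was seen in VIT_14s0068g01400, on chromosome 14 by its ID. It went from 1.19, 0.585 and 1.11 FPKM at 40 days to 45.5, 17.7 and 73.7 FPKM at 50 days (4.37 ± 0.44 SE, limma adjusted p = 3.12e-05). The 50-day libraries were far apart in this gene, with b the lowest, yet all lay above every 40-day library. Which of these rises is larger depends on the pseudocount: at 0.1 the differences were 5.26 in VIT_14s0068g01400 and 4.44 in VIT_00s0225g00230, and at 5 they were 2.91 and 4.12. VIT_14s0068g01400 was at 71.1, 30.1 and 35.5 FPKM at 60 days and rose again from 60 to 80 days, to 529, 514 and 414 FPKM (3.48 ± 0.44 SE, limma adjusted p = 0.000154).

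The largest falls were those of VIT_04s0008g05640 and VIT_03s0063g02380. VIT_04s0008g05640 went from 333, 317 and 669 FPKM at 40 days to 16.9, 2.87 and 5.36 FPKM at 50 days (-5.77 ± 0.46 SE, limma adjusted p = 9.15e-06). VIT_03s0063g02380 went from 133, 151 and 392 FPKM to 0.522, 1.56 and 12.4 FPKM (-5.74 ± 0.66 SE, limma adjusted p = 7.15e-05). Library c was the highest at 40 days in both, and the ages did not overlap in either. At a pseudocount of 0.1 their order turned, with differences of -5.99 in VIT_04s0008g05640 and -6.40 in VIT_03s0063g02380. Single libraries also moved them: the difference was -6.39 in VIT_04s0008g05640 without library a at 50 days, and in VIT_03s0063g02380 it was -6.66 without library c at 50 days and -5.25 without library c at 40 days. VIT_04s0008g05640 was then at 0.459 ± 0.17 FPKM at 60 days, and its 80-day entries were 0.142, 0 and 0 FPKM.

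Genes with the smallest p-values showed little spread between libraries, which a choice by p-value favours. VIT_05s0029g00190 rose from 3.56, 4.49 and 3.10 FPKM at 40 days to 44.5, 58.0 and 41.3 FPKM at 50 days, a mean 12.9 times as high (3.37 ± 0.15 SE, limma adjusted p = 6.49e-07). It was higher still at the later ages, at 78.1 ± 6.1 FPKM at 60 days and 92.3 ± 12 FPKM at 80 days. VIT_17s0000g01870 rose from 6.03, 6.16 and 6.28 FPKM to 27.9, 35.1 and 30.9 FPKM (2.17 ± 0.11 SE, limma adjusted p = 8.28e-07). Its level turned later: it was at 43.9, 39.6 and 38.9 FPKM at 60 days and fell to 19.8, 18.7 and 15.8 FPKM at 80 days (-1.13 ± 0.11 SE from 60 to 80 days, limma adjusted p = 2.56e-05). VIT_01s0011g00600 fell from 90.3, 85.4 and 110 FPKM at 40 days to 5.85, 4.01 and 3.79 FPKM at 50 days (-4.13 ± 0.18 SE, limma adjusted p = 6.49e-07). Its mean was 1.66 FPKM at 60 days and 1.15 FPKM at 80 days, and all later libraries were below every 50-day library.

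Among called genes, the largest losses in FPKM were in abundant genes that were reduced without being shut down. Some abundant genes that were not called lost as much or more. VIT_19s0014g02740 went from 100618, 89956 and 117973 FPKM at 40 days to 56341, 60087 and 54399 FPKM at 50 days, without overlap, but its difference was under 1 (-0.85 ± 0.24 SE, limma adjusted p = 0.0159). VIT_00s0187g00160 went from 9762, 9461 and 12790 FPKM to 4068, 3161 and 4232 FPKM and missed the p threshold (-1.48 ± 0.56 SE, limma adjusted p = 0.0516). Both were named after their values were seen.

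Of the called genes, VIT_06s0004g04660 went from 10471, 10300 and 13409 FPKM at 40 days to 4416, 4490 and 4661 FPKM at 50 days, and its mean at 40 days was 2.52 times that at 50 days (-1.32 ± 0.16 SE in log2 units, limma adjusted p = 8.39e-05). The 50-day libraries were close together, and the means at 60 and 80 days were 5091 ± 534 and 5392 ± 676 FPKM. VIT_19s0014g02730 went from 4269, 3922 and 4921 FPKM to 1488, 1569 and 2553 FPKM (-1.26 ± 0.22 SE, limma adjusted p = 0.000988). Library c was the highest at both ages. In this gene the level went on down, to 1174 ± 106 FPKM at 60 days and 622 ± 158 FPKM at 80 days. The step from 60 to 80 days, -0.94 ± 0.22 SE, had a limma adjusted p of 0.00729 but missed the minimum difference of 1.

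**Figure D3:**
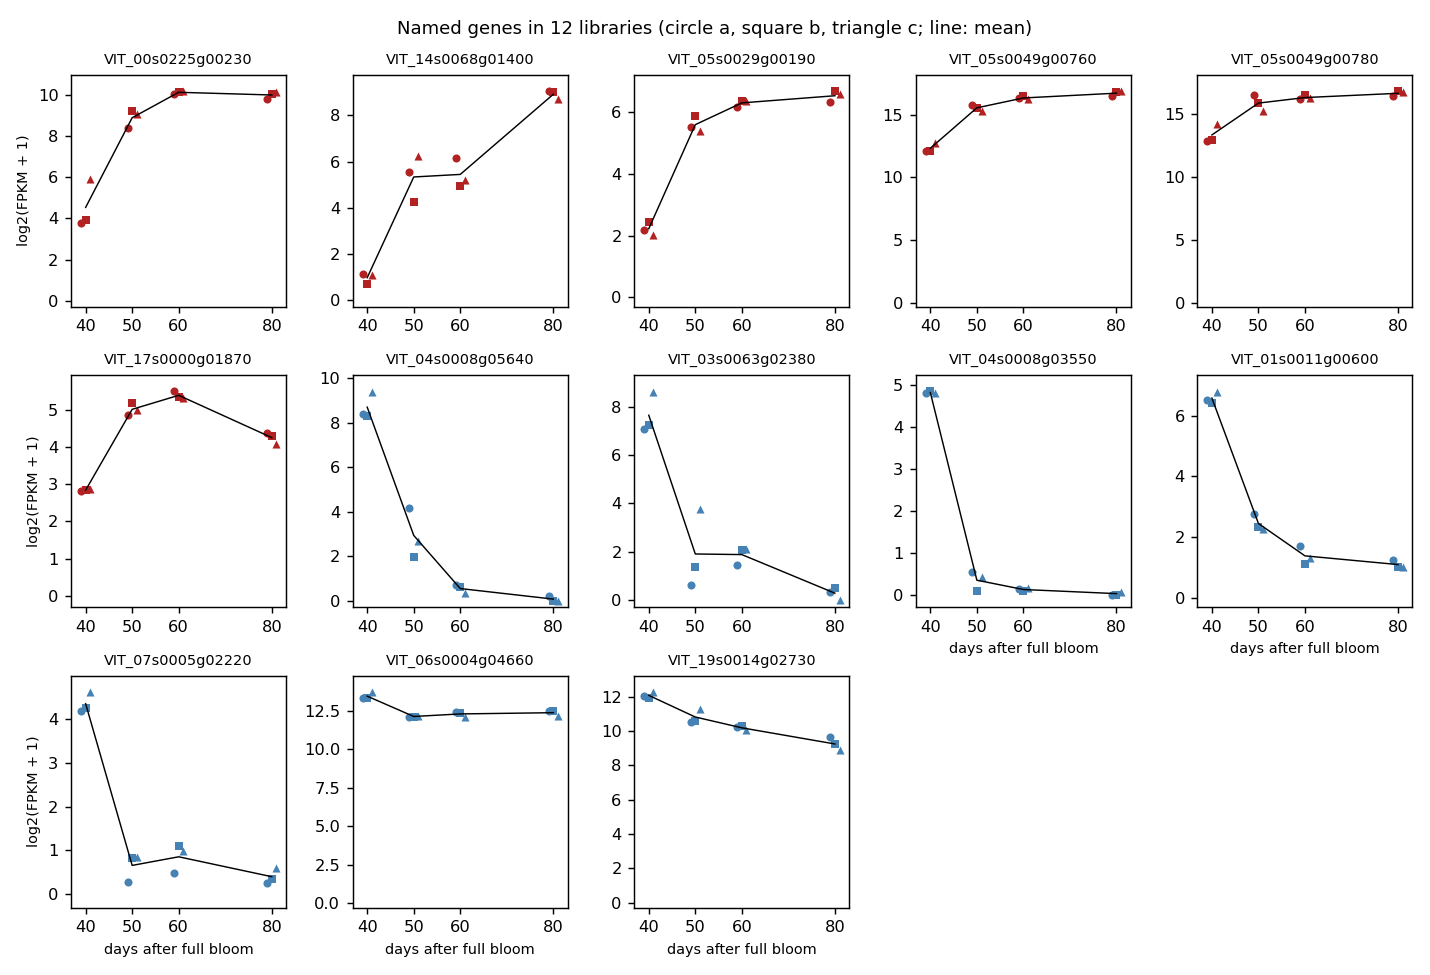
Each panel plots log2(FPKM + 1) of 1 gene in the 12 libraries against days after full bloom (circle a, square b, triangle c), with a line through the mean of each age. Genes in red were called higher and genes in blue lower at 50 than at 40 days. VIT_04s0008g03550 drops from about 27 FPKM at 40 days to below 1 FPKM in all later libraries, while VIT_06s0004g04660 is at 4416 FPKM or more throughout.

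A strict switch was rare in either direction. Only 4 of the 1243 falls were genes shut down in the sense of at least 10 FPKM in every 40-day library and under 1 FPKM in every 50-day library, and 0 of the 507 rises were genes started in the mirrored sense. VIT_04s0008g03550 was the clearest, with 27.2, 27.9 and 26.9 FPKM at 40 days and 0.448, 0.0624 and 0.330 FPKM at 50 days. Its groups stood far apart against the spread of either (-4.48 ± 0.13 SE, limma adjusted p = 2.39e-08), and it had the smallest p-value of all tested genes. Its 40-day libraries were the only 3 at 1 FPKM or more, so it passed the filter through them alone and was not tested without any 1 of them. It stayed under 1 FPKM in every later library, and its 80-day entries were 0, 0 and 0.0508 FPKM. VIT_07s0005g02220 went from 17, 17.8 and 23.4 FPKM to 0.221, 0.780 and 0.819 FPKM (-3.68 ± 0.22 SE, limma adjusted p = 1.89e-06). It stayed low later, with a highest value of 1.16 FPKM, in library b at 60 days.

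The other 2 genes shut down, named here after their values were seen, were VIT_03s0063g01970 (-3.00 ± 0.17 SE, limma adjusted p = 1.7e-06) and VIT_18s0001g13200 (-3.03 ± 0.29 SE, limma adjusted p = 2.22e-05). VIT_18s0001g13200 did not stay off: it went from 11.9, 12.5 and 12.4 FPKM at 40 days to 0.870, 0.400 and 0.631 FPKM at 50 days. At 60 days it was back at 1.91, 5.06 and 5.06 FPKM, and from 60 to 80 days it fell again, to 0.142, 0.789 and 0.0232 FPKM (-1.89 ± 0.29 SE, limma adjusted p = 0.000509). All 4 genes were under 1 FPKM in every 80-day library. These counts hang on the requirement in every library: with means of 3 libraries in place of each library, 18 genes were shut down and 7 started. Without library a at 50 days 8 genes were shut down and 3 started, and without library c at 40 days 4 started. Without library a at 40 days, or without library c at 50 days, 1 started. Of the 18 genes shut down by means, 17 were under 1 FPKM in every 80-day library. Of the 7 started by means, 5 were at 10 FPKM or more in every 80-day library.

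IDs of the VIT_ form carry a chromosome and scaffold number and a running gene number, and neighbouring IDs were compared by these numbers. Among 13782 pairs of neighbouring tested IDs on a scaffold, 463 had a first member that rose, and the neighbour also rose in 39 of them (8.42%, beside 3.39% of all second members). In 1164 pairs the first member fell, and the neighbour also fell in 134 (11.5%, beside 8.50%). In 64 pairs one member rose and the other fell. There were 5 runs of at least 3 consecutive tested IDs that all rose, with 18 genes in all, and 9 runs that all fell, with 31 genes. How many runs the shares of calls alone would give was not worked out, so these counts are a description and show no clustering by themselves. Runs depend on which IDs count as neighbours: with every deposited ID counted, tested or not, 2 rising runs were found, and without library b at 40 days 3 were found.

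The longest run was of 6 rising IDs on scaffold 49 of chromosome 5, from VIT_05s0049g00760 to VIT_05s0049g00880, and it held both genes with the largest gains in FPKM. The summed FPKM of the 6 genes went from 1.45% ± 0.54 (SD, n = 3) of the library total at 40 days to 9.79% ± 2.7 at 50 days. VIT_05s0049g00780 went from 7401, 7909 and 18224 FPKM in libraries a, b and c at 40 days to 92193, 58009 and 38028 FPKM at 50 days (2.52 ± 0.40 SE in log2 units, limma adjusted p = 0.000565). The ages did not overlap, but library c was the highest at 40 days and the lowest at 50 days. VIT_05s0049g00760 went from 4406, 4463 and 6892 FPKM to 56394, 47406 and 40989 FPKM, a mean 9.19 times as high (3.22 ± 0.26 SE, limma adjusted p = 9.48e-06). Both were higher again later, at 101340 ± 13830 and 108340 ± 14990 FPKM at 80 days, although neither passed the test from 60 to 80 days (limma adjusted p = 0.556 and 0.281).

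Between and beside those 2 genes lay members at very different levels. VIT_05s0049g00770 went from 171, 157 and 102 FPKM at 40 days to 2381, 1983 and 1627 FPKM at 50 days (3.81 ± 0.30 SE in log2 units, limma adjusted p = 8.43e-06), and VIT_05s0049g00880 from 20.2, 21.2 and 12.5 FPKM to 223, 167 and 149 FPKM (3.27 ± 0.32 SE, limma adjusted p = 2.51e-05). Both rose further from 60 to 80 days, by 1.19 ± 0.30 SE and 1.14 ± 0.32 SE (limma adjusted p = 0.00961 and 0.0166). In both of these, library c was the lowest at 40 days, where it was the highest in the more abundant pair. VIT_05s0049g00800 was under 1 FPKM at 40 days, at 0.467, 0.652 and 0.0863 FPKM, and was at 6.52, 2.88 and 1.85 FPKM at 50 days (1.66 ± 0.47 SE, limma adjusted p = 0.0141; 1.27 and adjusted p = 0.0584 without library a at 50 days). VIT_05s0049g00790 was at 2.76, 5.75 and 0.198 FPKM and then 9.59, 8.55 and 5.52 FPKM (1.48 ± 0.49 SE, limma adjusted p = 0.0304). Its ages overlapped, the difference was 2.04 without library b at 40 days, and the call was lost without library c at 40 days (0.79, limma adjusted p = 0.0666), without library a at 50 days (1.34, adjusted p = 0.0892) and without library b at 50 days (1.41, adjusted p = 0.0789). It was lost as well with no filter (adjusted p = 0.0503), in a fit of 40 and 50 days alone (0.0863), with a pseudocount of 0.1 (0.0523) and, by its size of 0.75, with a pseudocount of 5. How fragments that match more than 1 locus were counted is not given in the sources used here, and whether neighbours in the run share fragments was not tested. Of the 7 deposited IDs in the span, 1 was below the filter and was not tested. The run of 6 rests on this choice and on VIT_05s0049g00790. In 8 of 19 alternatives it broke, leaving 3 members in a row in 7 of them (no filter, the 2 ages alone, pseudocounts of 0.1 and 5, and the leave-outs of c at 40 days and of a or b at 50 days) and 5 when every deposited ID counted as a neighbour.

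The falling runs held at most 5 IDs, and 2 runs had that length. The one with the larger median change, on chromosome 17 from VIT_17s0000g05620 to VIT_17s0000g05680, had members of modest level. VIT_17s0000g05630 went from 87.4, 85.7 and 90.4 FPKM at 40 days to 32.6, 28.9 and 31.5 FPKM at 50 days (-1.47 ± 0.11 SE, limma adjusted p = 7.57e-06). VIT_17s0000g05680 went from 113, 124 and 99.1 FPKM to 48.3, 53.7 and 52.5 FPKM (-1.10 ± 0.12 SE, limma adjusted p = 5.39e-05). Neither overlapped between the ages. At 60 and 80 days VIT_17s0000g05630 stood at 62.7 ± 3.6 and 53.7 ± 9.8 FPKM, above every 50-day library and below every 40-day library.

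VIT_17s0000g05620 went from 5.11 ± 1.4 to 0.837 ± 0.21 FPKM (SD, n = 3) and VIT_17s0000g05650 from 25.6 ± 5.9 to 11.5 ± 2.1 FPKM. The latter was near the threshold (-1.09 ± 0.16 SE, limma adjusted p = 0.000349) and was under a difference of 1 without library c at 40 days (-0.91) or library c at 50 days (-0.96). In VIT_17s0000g05640 the 40-day values were 2.69, 2.87 and 19.2 FPKM, so that library c held most of the 40-day level, and the 50-day values were 1.04, 0.340 and 0.607 FPKM (-2.01 ± 0.55 SE, limma adjusted p = 0.0118). Without library c at 40 days the difference was -1.21 (adjusted p = 0.0108). The run of 5 was whole in 14 of 19 alternatives. It kept 3 members in a row with a filter at 5 FPKM, with sample weights and without library c at 40 or at 50 days, and had no 3 in a row with a pseudocount of 5. The summed FPKM of the 5 genes was 239 ± 9.1 at 40 days and 95.5 ± 1.8 at 50 days.

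**Figure D4:**
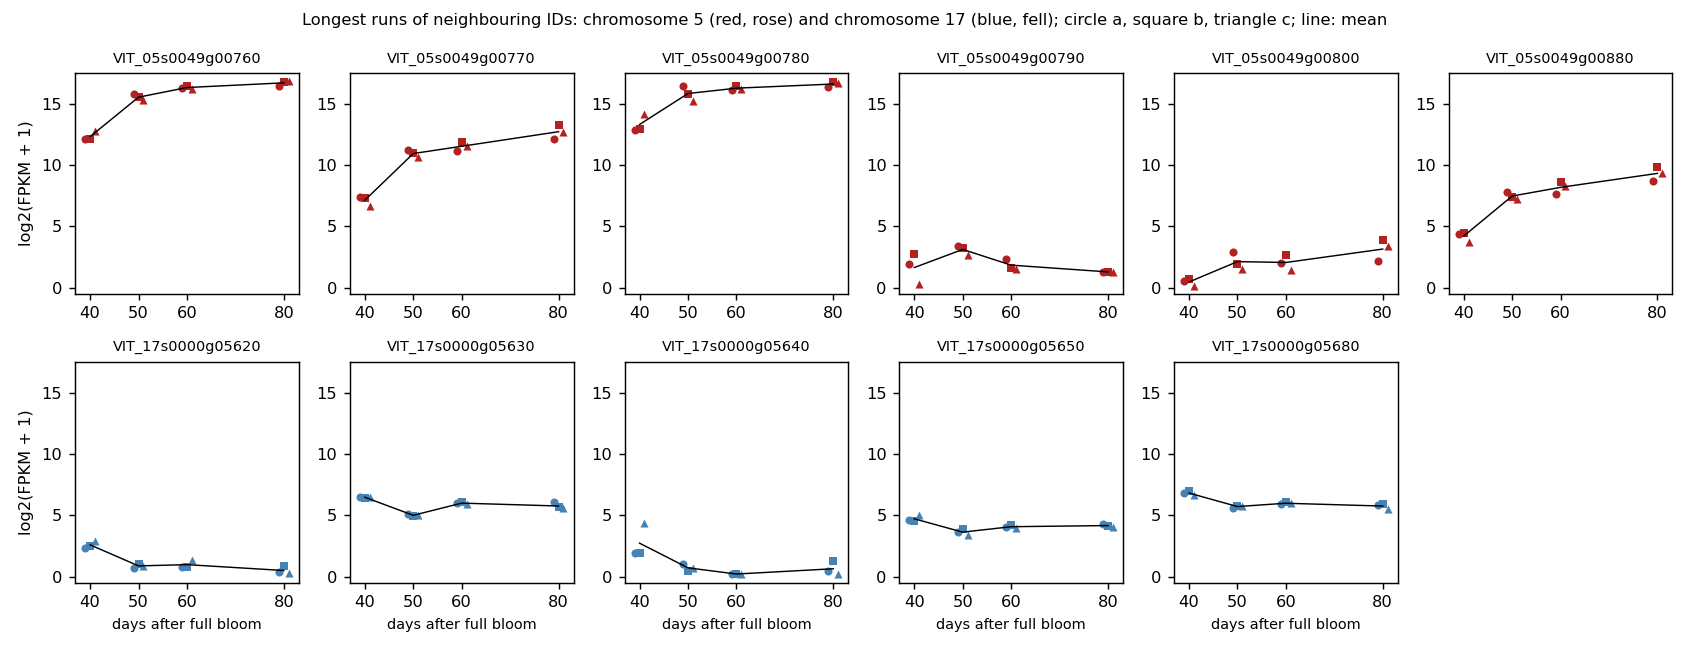
Each panel plots log2(FPKM + 1) of 1 member of the longest rising run (chromosome 5, upper row, red) and of the falling run of chromosome 17 (lower row, blue) against days after full bloom, on 1 common vertical scale. Symbols are libraries (circle a, square b, triangle c) and lines join the means. On chromosome 5, VIT_05s0049g00760 and VIT_05s0049g00780 lie above 12 on this scale at every age, while VIT_05s0049g00790 and VIT_05s0049g00800 lie below 5.

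Both directions were found on every chromosome number in the IDs. The share of tested genes that fell lay between 6.31% on chromosome 13 and 11.97% on chromosome 16, around the 8.43% of all tested genes. The share that rose lay between 1.92% on chromosome 3 and 5.45% on chromosome 1, around 3.44%. There were 1.36 falls for each rise on chromosome 1 and 5.36 on chromosome 16, with 111 and 70 genes called. Falls outnumbered rises on all 19 chromosomes and among the IDs with no placed chromosome (65 falls and 38 rises of 1026 tested). IDs called newGene, which are not of the VIT_ form, had 19 rises (5.81%) and 28 falls (8.56%) among 327 tested. No test was made between chromosomes.

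**Figure D5:**
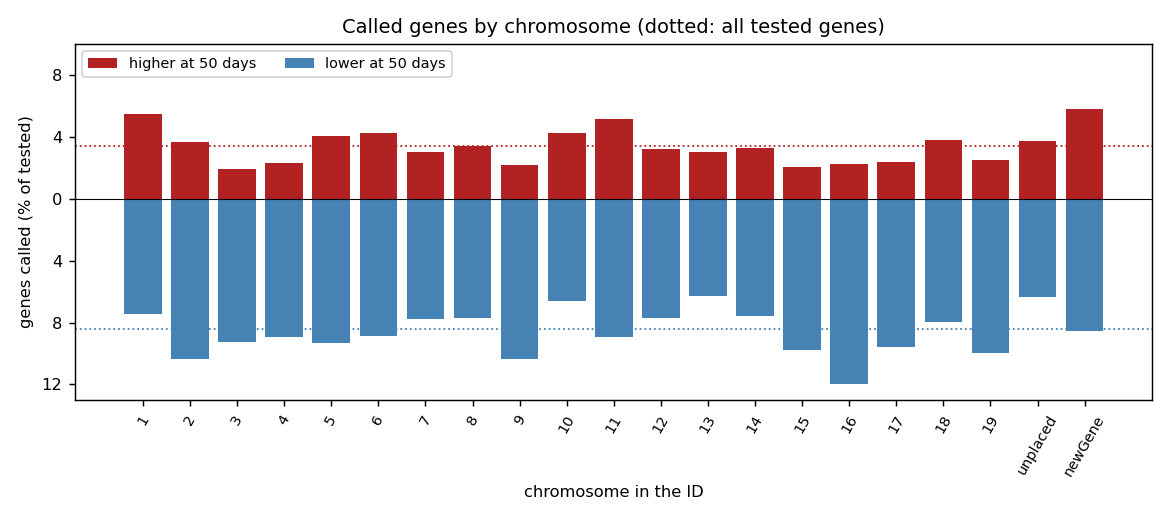
Bars give the percentage of tested genes called higher (upward, red) and lower (downward, blue) at 50 than at 40 days for each chromosome number in the IDs, for unplaced IDs and for newGene IDs. Dotted lines mark 3.44% and 8.43%, the shares over all tested genes. Chromosome 16 has the largest share of falls, 11.97%, and chromosome 1 the largest share of rises among the numbered chromosomes, 5.45%.

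The interval from 60 to 80 days shares no library with that from 40 to 50 days and gave a separate readout of the called genes. From 60 to 80 days, 2.68% of all tested genes rose and 6.8% fell by the same thresholds. Of the 1243 falls between 40 and 50 days, 259 (20.8%) fell again and 38 (3.06%) rose. These 259 genes were 25.8% of all falls between 60 and 80 days. Among the 467 of them with a mean of at least 10 FPKM at 50 days, 137 (29.3%) fell again, beside 600 (7.16%) of the 8381 tested genes at that level. Among the 252 with a fall of at least 2 in the earlier interval, 78 (31.0%) fell again and 2 rose. Of the 507 genes that rose, 58 (11.4%) rose again and 71 (14%) fell. These 58 and 71 genes were 14.7% of all rises and 7.08% of all falls from 60 to 80 days. The same fit gave both intervals a common spread for each gene, and genes with a small spread pass more easily in both. The part of this in the shares was not tested. With a pseudocount of 5, 104 genes fell in both intervals and 31 rose in both.

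Library c at 40 days stood apart from a and b and was the highest of the 3 in most genes that fell. Over the 14743 tested genes its Pearson correlation of log2(FPKM + 1) with a and b was 0.976 and 0.977, while a and b had 0.990 with each other. With the 50-day libraries it was 0.921 to 0.929, beside 0.931 to 0.936 for a and b. Of the 1243 genes that fell, 783 (63.0%) had their highest 40-day value in library c, beside 43.7% of all tested genes. Of the 507 that rose, 244 (48.1%) had their highest 40-day value there and 182 (35.9%) their lowest. Over all tested genes these shares were 43.7% and 37.8%, near those of the rises. Without this library 1083 genes fell and 534 rose, and 988 of the 1243 falls and 448 of the 507 rises were among them. The part of this library in the remaining calls was not tested.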

How the data were processed

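The authors deposited 1 table of FPKM values for 22580 gene IDs (21791 of the VIT_ form, 789 called newGene) in 12 libraries. TopHat2, Cufflinks, edgeR, FastQC and Trimmomatic 0.36 are listed in the submitters' processing notes, with no roles. No source used here gives the build, annotation or settings. Columns summed to 1058844 to 1216183 FPKM at 40 and 50 days and were not rescaled. All 12 columns were matched to samples by the labels (0 left over).

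Values were transformed to log2(FPKM + 1), where the pseudocount of 1 makes changes at low values look smaller. With limma 3.58.1 (R 4.3.3), each gene got 1 mean per age from the 12 libraries together (intensity trend, 8 residual degrees of freedom), and the fit was tested on simulated data. p-values were adjusted over all 14743 tested genes. The median SE of a difference was 0.15 on the log2 scale. Absolute depth is unknown. Ratios between libraries of genes at low values clustered at a depth of 0.853 to 1.75 times that of library a at 40 days in the other 5 libraries of 40 and 50 days.

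The genes compared, the lists and the rules were chosen with earlier results of these data known. Named genes were, in each direction, the 2 largest changes among called genes with no overlap and a mean of at least 10 FPKM at the higher age (316 rises and 825 falls were eligible), the 2 largest changes in FPKM among called genes, the 2 highest genes shut down or started, the 2 smallest p-values, and the longest run of neighbouring IDs. Lists by product name (photosynthesis, cell wall, sugar, acid, flavonoid, hormone, seed, vascular and others) could not be filled, because no ID has a name. Alternatives are listed with their effect at the end. Python 3.11.15, numpy 2.4.6, pandas 2.3.3 and matplotlib 3.10.9 were used.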

Additional observations from a re-analysis of the deposited data

How the results depend on the processing

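Counts of rises and falls from 40 to 50 days kept within 1.5 times their values (507 and 1243) with a pseudocount of 0.1, no filter, a filter at 5 FPKM, scaling by median of ratios or to a sum of 1000000, sample weights, no intensity trend, a fit of 40 and 50 days alone, and without each of the 6 libraries in turn. A pseudocount of 5 gave 238 and 661, and dropping the minimum fold 2514 and 3915. Genes that fell in both the earlier and the later interval numbered 259, against 104 with a pseudocount of 5, 419 at a pseudocount of 0.1 and 1035 without a minimum fold. Rises in both numbered 58, against 31, 97 and 588. Rises followed by falls numbered 71, against 29 at a pseudocount of 5 and 505 without a minimum fold, and falls followed by rises 38, against 11 and 433. Without library a at 80 days, an alternative chosen after seeing the data, 282 genes fell in both and 55 rose in both. Genes shut down numbered 4, against 14 with a limit of 5 FPKM in place of 10 and 18 by means, and genes started 0, against 3 and 7. With single libraries left out these were 3 to 8 and 0 to 4. Rising runs numbered 5, against 2 with no filter, with a pseudocount of 5 or with all deposited IDs as neighbours, 9 with a pseudocount of 0.1, 71 with no minimum fold, and 3 to 6 with single libraries left out. Falling runs numbered 9, against 15 with a pseudocount of 0.1, 1 at a pseudocount of 5 and 244 without a minimum fold. By construction, raising the pseudocount lowers differences at low values, and dropping the minimum fold admits smaller changes; for the other moves the cause was not tested. The 24 named genes kept their direction in all 427 values that the alternatives gave for them, and 4 genes lost the call in 14. Values with no minimum fold repeat the main fit and are no refits. Either change of filter, no intensity trend, the fit of 40 and 50 days alone, the replicate block and leaving out library a at 80 days left each named gene's difference unchanged. In these settings the direction could not turn. The genes were named from these same libraries, so a kept direction is no separate evidence. The letters a, b and c showed no pairing of 40- and 50-day libraries. Deviations of same-lettered libraries of these ages correlated at -0.15 to -0.004, and no 40-day library correlated best with its own letter. Same-lettered libraries of the other pairs of ages correlated at -0.16 to 0.19. The replicate block gave 513 rises and 1247 falls. Low genes are limited by the unknown depth.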
